A study of Mus musculus with 4 samples.

Results

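Integrins, cadherins and the proteins of cell junctions were examined in mouse embryonic stem (ES) cells that carry mutations of fosB. The members were the genes with a probe for that gene alone whose symbol in the array's platform annotation starts with Itga, Itgb, Cdh and a digit, Pcdh, Cldn, Gja, Gjb, Gjc, Tjp, Dsc, Dsg or Ctnn. This rule, which uses no measured value, gave 46 genes (47 probes) of the 6025 genes named on the array. They were 8 cadherins, 6 genes with the catenin prefix, 2 zonula occludens proteins, 6 claudins, 5 connexins, 9 integrin alpha chains, 7 genes with the integrin beta prefix and 3 protocadherins. No desmosomal cadherin (Dsc, Dsg) and no Gjc connexin was found by the rule, and 4 probes that list a symbol of these families together with another gene were not used. Of the 46 members, 3 share the letters of a family without being an adhesion chain. These were Itgb1bp2, which binds the tail of the integrin beta 1 chain, Itgbl1, a secreted protein that resembles integrin beta chains, and Ctnnbip1, an inhibitor of beta-catenin.

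Classical cadherins hold neighbouring cells together through calcium-dependent contacts outside the cell and are tied to actin inside it by beta-, alpha- and p120-catenin. Beta-catenin also acts in the nucleus as the effector of Wnt signalling. In tight junctions, claudins form the strands that seal the gap between epithelial cells, and zonula occludens proteins are the scaffold beneath them. Connexins build the channels of gap junctions. Integrins pair an alpha with a beta chain to bind laminin, fibronectin and other matrix proteins. E-cadherin (Cdh1) is the main cadherin of mouse ES cells, and endoderm derived from such cells forms an epithelium on a laminin-rich matrix.

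Each of 4 cDNA arrays carried RNA of a mutant and of wild-type ES cells in 2 colours. The mutant lines were homozygous fosBd/d cells, whose allele encodes only the short form ΔFosB (a truncated subunit of the AP-1 transcription factor), and fosB-null cells. The cultures had no feeder cells and were starved of serum for 72 h before 4 h with serum, as the title and labels state. Each mutant had 2 arrays, replicate 1 with the mutant in Cy3 and replicate 2 with it in Cy5. The labels do not say whether these came from separate cultures, so the spread between them may be technical, and how many clones each line stands for is not given in the sources used here. The fosB transcript itself was not analysed here, so the genotypes were not checked against it. Values are log2 ratios to wild type, converted from the deposited values taken as log10, and n = 2 arrays for each mean ± SD.

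The direction of the ratios is not settled. The sign marks of exact zeros show that replicate 1 of fosBd/d and replicate 2 of fosB-null had been multiplied by -1 before deposit. Read by the dye names, values above 0 then stand for more RNA in the mutant on the fosBd/d arrays and for less on the fosB-null arrays. Arrays with the mutant in Cy3 correlated at r = -0.463 between the mutants across all probes and those with it in Cy5 at r = -0.369. With the multiplication by -1 undone, these were 0.463 and 0.369. Pairs of the mutants in different dyes were at 0.336 and 0.326 either way. A component shared by all arrays before that multiplication has opposite signs in the negative pairs as deposited, so their r does not show the direction of the mutants. A convention of mutant over wild type on all arrays would keep the fosBd/d reading and turn that of fosB-null. The colour words in the labels, which call Cy3 red, would turn fosBd/d. Below, fosBd/d values above 0 are read as likely higher in the mutant, whereas for fosB-null the sign is reported without a direction. Within a dye swap the arrays also ran against each other over all probes, with r = -0.125 for fosBd/d and r = -0.318 for fosB-null, so each value below is given on both arrays.

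In fosBd/d cells, 4 of 6 claudins, E-cadherin (Cdh1), alpha-catenin (Ctnna1) and both zonula occludens proteins had values above 0 on both arrays, the side read as likely higher in mutant cells. The claudins Cldn6 and Cldn7 had the highest means of all members, 1.60 ± 0.49 (3.02-fold) and 1.40 ± 0.96 (2.64-fold). Of the 46 members, 18 (39.1%) were positive on both fosBd/d arrays, against 21.7% of the 8939 features of the array and 25% of the named genes. Another 6 members (13.0%) were negative on both, against 22.3% of all features and 24.2% of the named genes. The median over the members was 0.19, with quartiles of -0.03 and 0.47, beside a median of -0.02 over all features. Only Cldn6 and Cldn7 were positive by at least 1.5-fold on both arrays (3.24% of all features were), and Ctnnbip1 was the only member negative by that much on both (1.31% of all features).

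No single member passed the test in fosBd/d. In limma with Benjamini-Hochberg adjustment over all features, 0 of 46 members and 0% of all features had an adjusted p under 0.05, and the smallest adjusted p was 0.291. An unadjusted p under 0.05 was reached by 9 members (Cdh1, Cdh4, Ctnna1, Tjp1, Cldn5, Cldn6, Cldn7, Gjb5 and Itgb4), all on the positive side, which is close to the share of all features, 16%. In a fit of all 4 arrays without the dye term, 5 members reached it. Over all 8939 features the number fell too, from 1433 to 675.

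**Figure D1:**
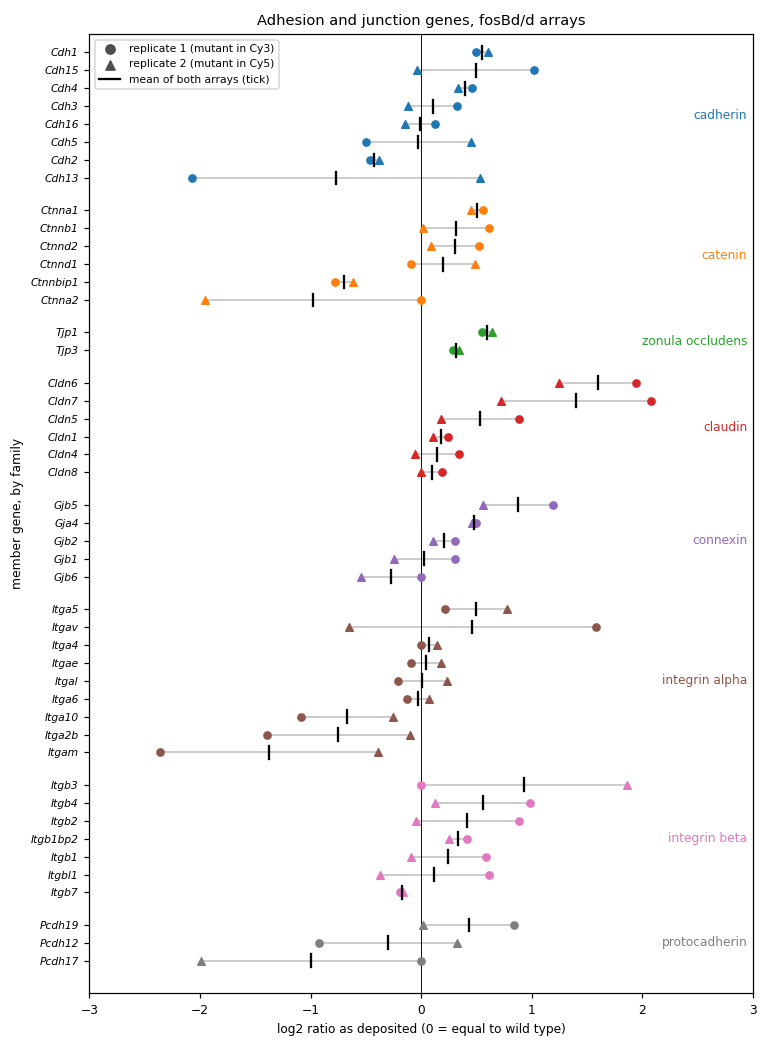
Log2 ratios of the 46 members on both fosBd/d arrays (x axis, as deposited), by family and ordered by mean; circles are replicate 1, triangles replicate 2 and black ticks the mean of both. Cldn6 and Cldn7 lie farthest to the right, and Itgam, with -2.36 and -0.39, has the lowest mean.

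All 6 claudins had a positive mean in fosBd/d, 4 were positive on both arrays, and the family median was 0.36. The family medians on replicates 1 and 2 were 0.61 and 0.14, and every claudin read higher on replicate 1. Cldn6, a claudin of embryonic epithelia, read 1.94 and 1.25 on replicates 1 and 2. Cldn7, found in many epithelia, read 2.08 and 0.72. Both arrays of each gene lay well above 0, but replicate 1 was higher by far for Cldn7. Cldn5, the claudin of endothelium, followed with 0.89 and 0.18, and Cldn1, needed for the barrier of the epidermis, with 0.25 and 0.11. Cldn8, a claudin of kidney tubules, read 0.19 on replicate 1 and was listed at 0 on replicate 2. Cldn4, another epithelial claudin, read 0.34 and -0.06, so its arrays disagreed.

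Since FosB and ΔFosB act as part of AP-1, the promoters of the members were searched for TGANTCA, the AP-1 site, and for TGACGTCA, the related cyclic AMP response element that some AP-1 dimers also bind. Taken as a pattern, each motif reads the same on both strands, and a site of one is not a site of the other. RefSeq's GRCm38.p6 promoter table (250 bases before to 50 bases after a start) held 37 promoters for 29 of the members, and the other 17 were not matched. TGACGTCA stood in 2 of the 37, against 1.79% of 32851 promoters in the table, and TGANTCA in 2 of the 37, against 7.81%. The genes with TGACGTCA were Cldn6 and Cldn7, the members with the highest fosBd/d means, with its first base 40 bases before the Cldn6 start and 38 bases before the second of 2 listed Cldn7 starts. They are shown from chr17:23679115-23679414 (plus strand) and chr11:69965171-69965470 (plus strand), 5′ to 3′, with the motif in capitals. The pattern was noticed after the values were known, rests on these 2 genes, and says nothing about binding.
Cldn6: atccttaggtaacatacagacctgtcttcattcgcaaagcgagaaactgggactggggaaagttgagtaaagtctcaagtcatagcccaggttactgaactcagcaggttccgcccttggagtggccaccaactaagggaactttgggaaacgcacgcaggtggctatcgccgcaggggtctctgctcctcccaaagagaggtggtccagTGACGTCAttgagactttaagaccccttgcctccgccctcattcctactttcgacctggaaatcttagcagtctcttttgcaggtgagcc
Cldn7: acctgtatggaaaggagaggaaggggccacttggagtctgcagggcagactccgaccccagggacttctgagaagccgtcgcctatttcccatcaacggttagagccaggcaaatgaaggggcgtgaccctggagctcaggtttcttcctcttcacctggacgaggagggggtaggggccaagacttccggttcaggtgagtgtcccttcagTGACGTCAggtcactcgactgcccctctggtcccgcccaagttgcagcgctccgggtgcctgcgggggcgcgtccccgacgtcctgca

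TGANTCA stood in the promoters of Cldn4 and Ctnnbip1, members with other readings. They are shown for comparison from chr5:134946885-134947184 (minus strand) and chr4:149517991-149518290 (plus strand), with the motif in capitals. It began 240 and 158 bases before the Cldn4 start and 6 bases before the first of 2 listed Ctnnbip1 starts.
Cldn4: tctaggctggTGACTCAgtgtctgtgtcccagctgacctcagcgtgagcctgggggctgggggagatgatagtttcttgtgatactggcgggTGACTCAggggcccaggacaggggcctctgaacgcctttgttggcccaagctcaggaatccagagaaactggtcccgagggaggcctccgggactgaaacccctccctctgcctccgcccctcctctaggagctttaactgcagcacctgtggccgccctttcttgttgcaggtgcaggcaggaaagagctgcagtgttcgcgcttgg
Ctnnbip1: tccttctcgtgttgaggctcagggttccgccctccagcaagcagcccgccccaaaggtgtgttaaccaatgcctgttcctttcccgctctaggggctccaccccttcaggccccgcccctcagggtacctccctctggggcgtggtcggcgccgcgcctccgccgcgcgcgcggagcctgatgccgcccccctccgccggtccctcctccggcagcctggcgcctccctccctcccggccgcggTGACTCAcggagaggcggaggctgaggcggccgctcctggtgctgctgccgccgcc

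Among the cadherins, E-cadherin had the highest mean in fosBd/d. Cdh1 read 0.50 and 0.61, a mean of 0.55 ± 0.08 (1.47-fold). Cdh4 (R-cadherin) read 0.46 and 0.34 as the mean of 2 probes. Those probes disagreed on replicate 2, with 0.42 and 1.01 on replicates 1 and 2 for the first probe and 0.50 and -0.34 for the other. Cdh2 (N-cadherin, typical of neural and mesenchymal cells) was the only cadherin negative on both arrays, at -0.47 and -0.38. Thus Cdh1 and Cdh2 lay on opposite sides, each with arrays that nearly coincided. The remaining 5 cadherins differed in sign between arrays. Cdh13 (T-cadherin, which is held to the membrane by a lipid anchor) read -2.07 and 0.54, Cdh15 of muscle 1.02 and -0.03, and Cdh5 of endothelium -0.50 and 0.45. Cdh3 (P-cadherin) and Cdh16 of kidney were closer to 0, with 0.32 and -0.12, and 0.13 and -0.14. The cadherin median was 0.05.

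Alpha-catenin had the highest mean of the catenin genes. Ctnna1, which links the cadherin complex to actin, read 0.56 and 0.45 (mean 0.50 ± 0.07). Ctnnb1 (beta-catenin) read 0.61 on replicate 1 but 0.01 on replicate 2, and Ctnnd2, a neural relative of p120-catenin, read 0.52 and 0.09. These 3 were positive on both arrays. Ctnnd1, p120-catenin itself, read -0.09 and 0.49. Ctnnbip1, which keeps beta-catenin from its partners in the nucleus, was negative on both arrays at -0.78 and -0.62. Ctnna2, the neural alpha-catenin, was listed at 0 on replicate 1 and read -1.95 on replicate 2, so its mean rests on 1 array. A value of exactly 0 can stand for a spot without a usable ratio.

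The zonula occludens proteins were positive on both arrays, with little spread. Tjp1 (the scaffold ZO-1) read 0.55 and 0.64, a mean of 0.60 ± 0.06, and Tjp3 read 0.29 and 0.34, a mean of 0.31 ± 0.04. Connexins were positive on both arrays for 3 of 5 genes. Gjb5, a connexin of skin and placenta, read 1.19 and 0.56 (mean 0.88 ± 0.45, 1.83-fold), Gja4 of endothelium and oocytes 0.49 and 0.46, and Gjb2 of the inner ear and skin 0.31 and 0.11. Gjb1 of liver and peripheral nerve differed in sign with 0.31 and -0.25. Gjb6, which often works with Gjb2, was listed at 0 and read -0.54. The connexin median was 0.21.

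Integrin alpha chains showed no common side in fosBd/d, with a median of 0.01 over 9 genes. Itga5, the alpha chain of the fibronectin receptor, was the only member of this family positive on both arrays, at 0.22 and 0.77. Negative on both arrays were Itgam of myeloid cells (-2.36 and -0.39), Itga2b of platelets (-1.40 and -0.10) and the collagen-binding chain Itga10 (-1.09 and -0.25). Each of these 3 was far lower on replicate 1 than on replicate 2. Itgav, which pairs with several beta chains, had the widest split among alpha chains, at 1.58 and -0.65. Itga6, the alpha chain of laminin receptors, lay near 0 at -0.12 and 0.07, and the leukocyte chains Itgae and Itgal read -0.09 and 0.18, and -0.21 and 0.23. Itga4 was listed at 0 and read 0.14. Itgam, Itgal, Itgae and Itga2b mark blood cells, and whether their spots were above background is not known from these values.

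The genes with the integrin beta prefix had a median of 0.33 over 7, and 6 of the means were positive. Their medians on replicates 1 and 2 were 0.59 and -0.05, so the positive side came from replicate 1. Itgb4, the hemidesmosome chain that pairs with alpha 6, was positive on both arrays but unevenly, at 0.99 and 0.12. Itgb1, which most matrix-binding integrins share, read 0.59 and -0.10. Itgb3, the partner of alpha v and of the platelet chain, was listed at 0 and read 1.86, so its mean of 0.93 rests on 1 array. Itgb2 of leukocytes read 0.88 and -0.05, and Itgb7 of lymphocytes was negative on both at -0.19 and -0.16. The 2 genes that are not integrin chains, Itgb1bp2 and Itgbl1, read 0.42 and 0.25, and 0.61 and -0.37. Over the 14 true integrin chains of both kinds, the fosBd/d median was 0.06, with 2 positive and 4 negative on both arrays. All 3 protocadherins, which belong to the wider cadherin family, had uneven values. Pcdh19 read 0.84 and 0.02, Pcdh12 -0.92 and 0.33, and Pcdh17 was listed at 0 and read -1.99.

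In fosB-null cells, where the sign is open to turning, the zonula occludens genes, Cldn1 and several cadherins lay on the negative side. Of the 46 members, 14 (30.4%) were negative on both arrays, against 18.9% of all features and 21.9% of the named genes, and 4 (8.70%) were positive on both, against 18.7% and 19.5%. The member median was -0.03, with quartiles of -0.26 and 0.08, beside a median of 0.00 over all features. Tjp3 was the only member negative by at least 1.5-fold on both arrays (0.515% of all features were), and 0 members were positive by that much (0.548% of all features). In limma, 0 of 46 members and 0% of all features had an adjusted p under 0.05, and the smallest adjusted p among the members was 0.650. An unadjusted p under 0.05 was reached by 5 members (Cdh1, Cdh3, Tjp3, Cldn1 and Itgal), all on the negative side, against 6.07% of all features. All 4 arrays without the dye term gave 3 members, and over all 8939 features the number fell from 543 to 176. The member median was -0.14 on fosB-null replicate 1 alone and -0.04 on replicate 2 alone.

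**Figure D2:**
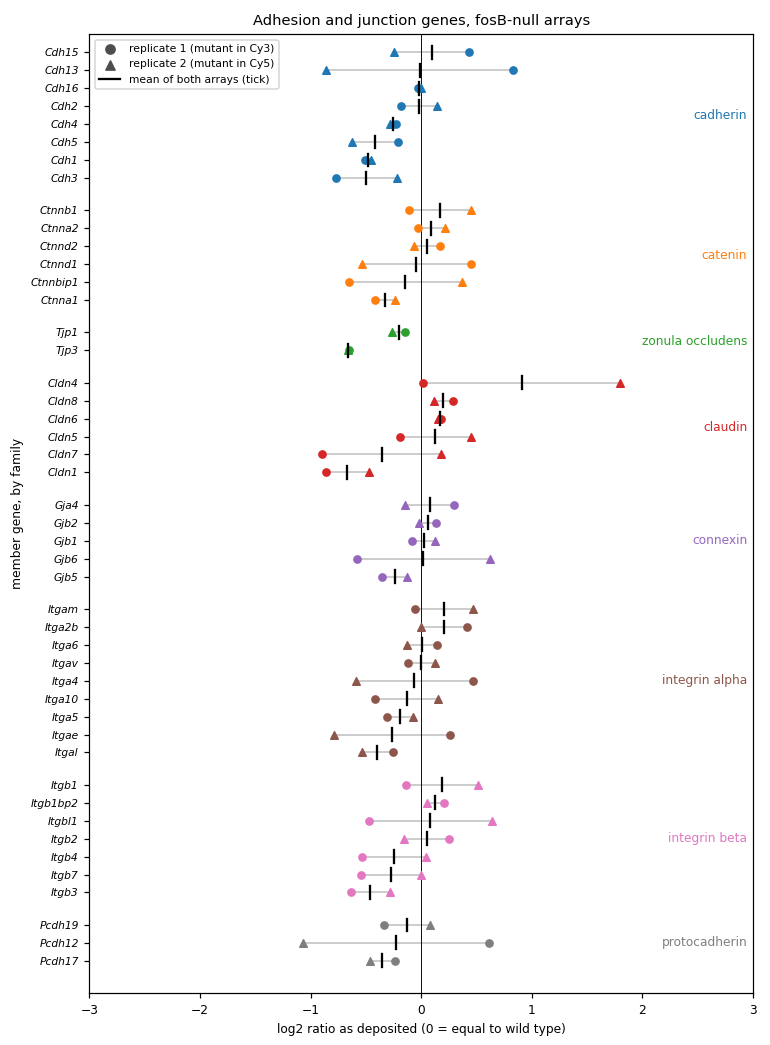
Log2 ratios of the 46 members on both fosB-null arrays (x axis, as deposited, direction not settled), drawn as for fosBd/d. Tjp3, with -0.65 and -0.67, and Cdh1, with -0.51 and -0.46, have arrays that nearly coincide.

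Both zonula occludens genes were negative on both fosB-null arrays. Tjp3 read -0.65 and -0.67, a mean of -0.66 ± 0.01 (1.58-fold), and Tjp1 -0.14 and -0.26. Of the 8 cadherins, 4 were negative on both and 0 positive on both, with a family median of -0.14. Cdh1 read -0.51 and -0.46 (mean -0.48 ± 0.04), Cdh3 -0.77 and -0.22, Cdh5 -0.21 and -0.63, and Cdh4 -0.22 and -0.28. The probes of Cdh4 again disagreed, with -0.68 and -0.27 for the first and 0.23 and -0.29 for the other, and the first alone gave a mean of -0.47. Cdh13 again had the widest split, 0.83 and -0.86, and Cdh15 read 0.44 and -0.24. Cdh2 read -0.18 and 0.14, and Cdh16 -0.03 with a listed 0.

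Catenins were mostly split by array in fosB-null, with 5 of 6 on opposite sides. Ctnna1 was negative on both at -0.41 and -0.24. Ctnnb1 read -0.11 and 0.45, Ctnnd1 0.45 and -0.54, and Ctnnbip1 -0.65 and 0.37. Ctnna2 and Ctnnd2 stayed near 0, with -0.03 and 0.22, and 0.17 and -0.06. Claudins did not share a side. Cldn1 was negative on both arrays at -0.86 and -0.47, while Cldn6, Cldn8 and Cldn4 were positive on both. Cldn6 read 0.18 and 0.16, far from its fosBd/d values, and Cldn8 read 0.28 and 0.11. Cldn4 read 0.02 on replicate 1 and 1.80 on replicate 2, the highest single fosB-null value of any member. Cldn7 read -0.89 and 0.18, and Cldn5 -0.19 and 0.45.

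Connexins, integrins and protocadherins had few genes with a common side in fosB-null. Connexin means ran from -0.24 to 0.08, and Gjb5 was the only one with a common side, -0.36 and -0.12. Integrin alpha means ran from -0.40 to 0.21. Itgal (-0.26 and -0.54) and Itga5 (-0.31 and -0.07) were negative on both arrays, while Itgae (0.26 and -0.79) and Itga4 (0.47 and -0.59) split most. Among beta chains, Itgb3 read -0.64 and -0.28, and Itgb7 read -0.54 and -0.00089. Itgb1 read -0.14 and 0.52, Itgb4 -0.53 and 0.04, and Itgb2 0.25 and -0.16. All 3 protocadherin means were negative, with a median of -0.23. The arrays had a common side for Pcdh17 (-0.24 and -0.46) and split for Pcdh12 (0.61 and -1.07) and Pcdh19 (-0.34 and 0.08).

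The dye term was large for several members. The fit gave every feature a component shared by all 4 arrays before any were multiplied by -1, which as deposited has opposite signs on the arrays of a swap. It was larger than the fosBd/d effect for 16 of the 46 members (34.8%, against 42.6% of all features) and larger than the fosB-null effect for 25 (54.3%, against 59.7%). Cdh13 had the largest dye component of the members, 1.08, followed by Pcdh12 at 0.73 and by Itgav and Cldn7 at -0.62 and -0.61. By contrast it was 0.01 for Cdh1, 0.02 for Tjp3, 0.05 for Tjp1 and -0.07 for Ctnna1. For these 4 genes the arrays of each swap gave values close to each other. Across the members, the 2 arrays of a swap correlated at r = 0.195 for fosBd/d and r = -0.220 for fosB-null, a description over 46 genes that share the arrays.

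**Figure D3:**
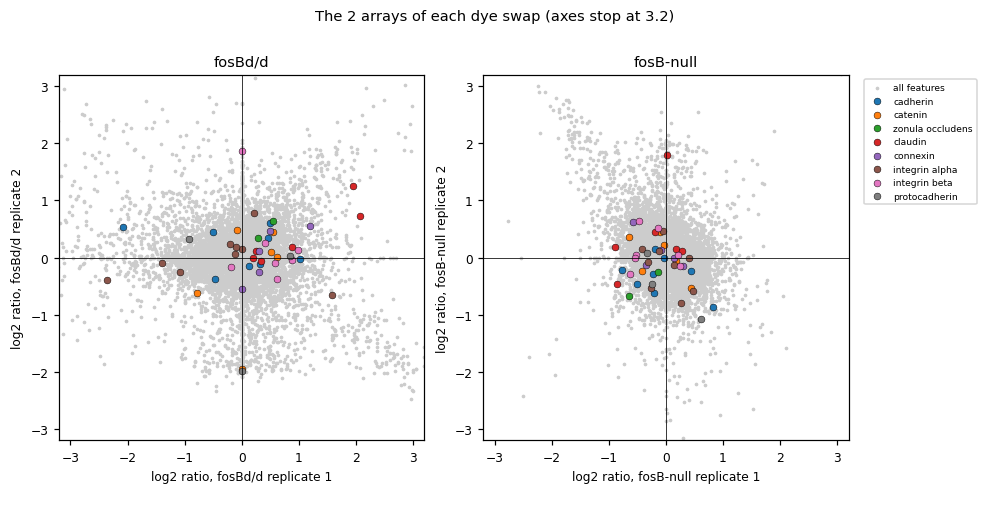
Log2 ratio on replicate 2 (y axis) against replicate 1 (x axis) for all features (grey) and the 46 members (coloured by family), for fosBd/d (left) and fosB-null (right). In fosBd/d, Cldn6 and Cldn7 lie in the upper right quadrant, and grey points stretch from upper left to lower right in fosB-null.

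The mutants were compared through wild type, first with the deposited signs and then with that of fosB-null turned. As deposited, fosBd/d was above fosB-null for 33 of the 46 members, against 45.7% of all features, with a median difference of 0.25 beside -0.04. With the sign turned it was above for 27, against 47.5% of all features, with a median of 0.15 beside -0.02. Read by the colour words of the labels, the values with the sign turned would all change side. Neither version had a member with an adjusted p under 0.05 in limma, and 0% of all features had one in each. The smallest adjusted p among the members was 0.353 as deposited and 0.516 with the sign turned. An unadjusted p under 0.05 was reached by 11 members as deposited (14% of all features) and by 4 with the sign turned (9.25% of all features). Those 11 became 8 without the dye term and 1 with the arrays paired by dye. Over all features the number fell too, from 1251 to 512 and 144. As deposited, pairing by dye leaves the dye component in the paired differences with opposite signs, so it adds to their spread.

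Cldn6 and Cldn7 were above in both versions. The difference ± SE was 1.43 ± 0.27 for Cldn6 as deposited and 1.77 ± 0.27 with the sign turned, and 1.76 ± 0.16 and 1.04 ± 0.16 for Cldn7. As deposited, Cldn7 stood at 1.08 without fosBd/d replicate 1 and 2.43 without replicate 2, a spread that the SE does not show. Cldn6 as deposited was 1.08 and 1.77 without fosBd/d replicates 1 and 2. Gjb5 stood at 1.12 ± 0.18 and 0.64 ± 0.18, and Cldn5 at 0.41 ± 0.13 and 0.66 ± 0.13. Without fosBd/d replicates 1 and 2, Gjb5 as deposited was 0.796 and 1.435. With an array left out, Cldn5 as deposited ran from 0.05 (without fosBd/d replicate 1) to 0.76 (without replicate 2), and was 0.09 and 0.73 without fosB-null replicates 1 and 2. For E-cadherin, alpha-catenin and the tight junction scaffold the versions parted. Cdh1 differed by 1.04 ± 0.14 as deposited and by 0.07 ± 0.14 with the sign turned. Ctnna1 stood at 0.83 ± 0.13 and 0.18 ± 0.13, and Tjp1 at 0.80 ± 0.12 and 0.39 ± 0.12. The other catenins of the cadherin complex did not follow. Ctnnb1 moved the other way, from 0.14 ± 0.13 to 0.48 ± 0.13, and Ctnnd1 changed little, from 0.25 ± 0.18 to 0.15 ± 0.18. As deposited, Ctnnb1 was -0.16 without fosBd/d replicate 1 and 0.44 without replicate 2. Tjp3 and Cldn1 changed side, from 0.97 ± 0.12 to -0.34 ± 0.12 and from 0.84 ± 0.15 to -0.49 ± 0.15, as did Cdh3, from 0.60 ± 0.13 to -0.39 ± 0.13. Cdh3 as deposited was 0.38 without fosBd/d replicate 1 and 0.32 without fosB-null replicate 1. On the other side, Itgam stood at -1.59 ± 0.83 and -1.17 ± 0.83, Ctnna2 at -1.07 ± 0.58 and -0.88 ± 0.58, and Cdh2 at -0.40 ± 0.18 and -0.45 ± 0.18. As deposited, Itgam was -0.60 and -2.57, and Ctnna2 -2.05 and -0.09, without fosBd/d replicates 1 and 2, and Cdh2 was -0.24 without fosB-null replicate 2.

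**Figure D4:**
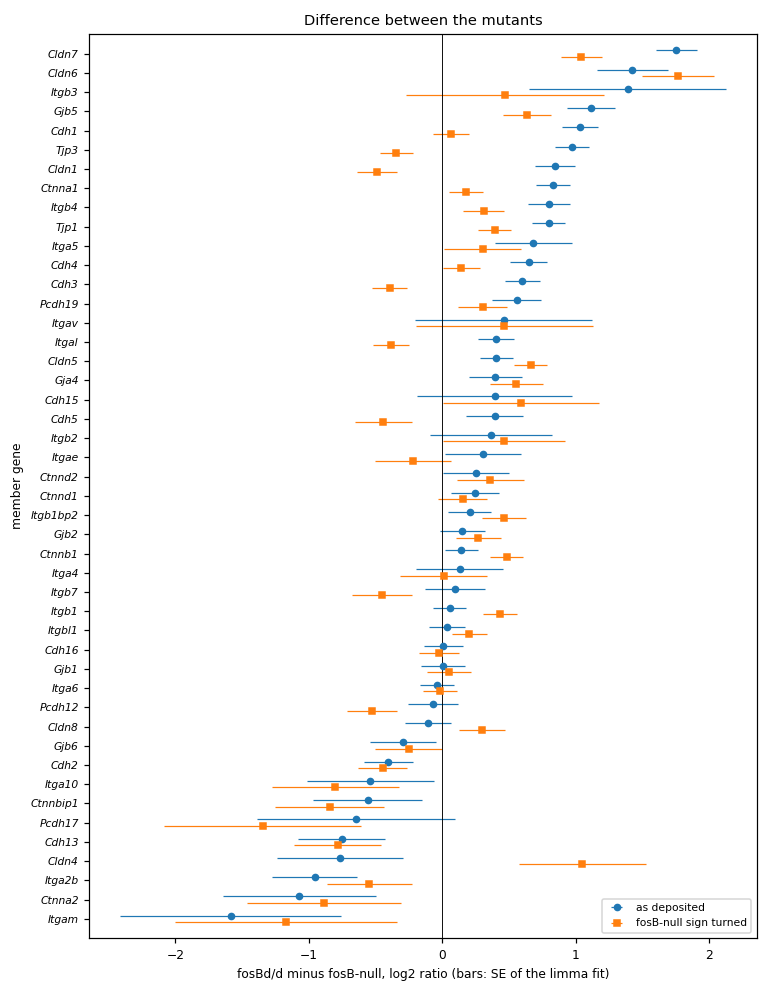
Fitted difference fosBd/d minus fosB-null (x axis, log2 ratio) for the 46 members, with deposited signs (blue circles) and after turning that of fosB-null (orange squares), with bars for ± SE. Cldn7 and Cldn6 head the list in blue, and for Cdh1 the orange square, at 0.07, lies close to 0.

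Other genes of adhesion were described from lists chosen with earlier results known. No gene on them passed limma after adjustment. Integrin ligands of the matrix had a median of 0.42 in fosBd/d. Of the 15 measured, both arrays were positive for 13 and negative for 0. Over all features, 21.7% were positive and 22.3% negative on both fosBd/d arrays, the shares to set beside each fosBd/d count here. The laminin chains Lamb1 (2.74 and 2.19), Lama1 (2.14 and 2.17) and Lamc1 (1.91 and 1.58) lay far above their receptor chain Itga6 at -0.12 and 0.07. Other laminin chains were lower, Lamb2 at 1.02 and 0.46, Lama4 at 0.56 and 0.29 and Lama5 at 0.42 and 0.27. Lamb3 read 0.10 and 0.03, and Lama2 was listed at 0 and read 0.04. The fosB-null median was -0.23, with 7 negative and 1 positive on both, against 18.9% and 18.7% of all features. Focal adhesion genes, which tie integrins to actin, had a fosBd/d median of 0.40 over 12, with 7 positive and 1 negative on both, among them Zyx at 1.08 and 1.10 and Tgfb1i1 at 0.86 and 1.73. Other junction genes had a median of 0.25 over 11, with 4 positive and 1 negative on both. The scaffold Magi3 read 0.62 and 0.93 and the gap junction relative Panx1 0.56 and 0.47, whereas Jup (plakoglobin) read 0.64 and -0.34. Other adhesion molecules centred on 0.01 over 18, with 5 positive and 4 negative on both, counts close to the shares of all features. Vcam1 read 1.00 and 1.26, Cd151 (a tetraspanin that binds laminin receptors) 0.77 and 1.00, and Epcam 0.53 and 0.54, while Ncam1 read -0.54 and -0.48.

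Markers of other cell types were set beside the members, with 0 past adjustment in limma here too. Primitive, parietal and visceral endoderm markers had a fosBd/d median of 1.52 over 15. Both arrays were positive for 11 and negative for 0, against 21.7% and 22.3% of all features. Among them were Krt8 (1.65 and 1.82), a keratin of simple epithelia, and Foxa2 (1.65 and 1.81). The arrays of 3 others disagreed in sign, Sox17 (2.83 and -1.95), Krt19 (1.95 and -0.90) and Afp (1.05 and -0.29). Apoa1 read 0.73 and was listed at 0 on replicate 2. In fosB-null the endoderm list had a median of -0.03. There 4 were positive and 6 negative on both arrays, against 18.7% and 18.9% of all features. Means were highest for Ttr (1.12 and 0.87) and lowest for Thbd (-1.01 and -1.88). Of 8 pluripotency markers, 4 were negative and 2 positive on both fosBd/d arrays, against 22.3% and 21.7% of all features. Their median was -0.38. Feeder fibroblast markers had a median of 0.07 over 9, those of epithelium or trophoblast -0.03 over 4, of mesoderm -0.38 over 3 and of neural cells -0.10 over 3. How far a shift in cell types bears on the claudin, cadherin and connexin values was not tested, and in bulk samples fewer cells of a type and less RNA per cell cannot be told apart.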

How the data were processed

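Signals came from 4 two-colour Agilent mouse cDNA arrays with 9480 probes. The values deposited by the authors are 1 per probe and array and were taken as log10 ratios of the channels, which is how Agilent Feature Extraction, the software in the submitters' processing notes, defines its log ratio. The sources used here do not give the version, background correction, dye normalization or filters, the log base rests on that definition, and all columns have a median of 0. Signal intensities were not analysed here, so depth and signal over background are unknown, and the number of arrays limits the precision.

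Values were multiplied by log2 of 10. Probe names came from the platform annotation of 2007, with 6566 probes for 1 gene. Symbols were updated by gene identifier through RefSeq, which changed 0 members. The probes of a gene were averaged, and other probes were kept singly, giving 8939 features. limma 3.58.1 in R 4.3.3 was fitted to all 4 arrays with a coefficient for each mutant and a dye term, leaving 1 residual degree of freedom and a prior of 1.31. Two-sided p-values were adjusted by Benjamini-Hochberg over all features, with a threshold of 0.05. The step was tested on simulated data, with a pass condition only at noise far below the fitted spread of these arrays. Shares of features with a common sign on both arrays, or at least 1.5-fold, carry no test.

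Members and lists were chosen with earlier results of these data known. Per family, members with the highest smaller value on both arrays and those whose arrays differed most were given on every array. Alternatives covered the dye term, averaging, scaling, zeros, log base, sign, pairing, membership and each array left out.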

Additional observations from a re-analysis of the deposited data

Results flagged for a closer look

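As deposited, 8 members had both fosBd/d arrays on one side of 0 and both fosB-null arrays on the other (17.4% of the members, against 12.8% of all features). In each case fosBd/d was positive. The difference fosBd/d minus fosB-null was 1.04 for Cdh1, 0.65 for Cdh4, 0.83 for Ctnna1, 0.80 for Tjp1, 0.97 for Tjp3, 0.84 for Cldn1, 1.12 for Gjb5 and 0.68 for Itga5. The Cdh4 value averages 2 probes, of which the second had no common side in either mutant, and the first alone gave 1.19. Itga5 stood at 0.41 without fosBd/d replicate 2. In limma the difference had an adjusted p of 0.353 or more for every member. With the fosB-null sign turned, all 8 genes would have both mutants on the positive side. Another 3 members had all 4 arrays on one side as deposited, 6.52% of the members against 8.37% of all features. By their values these were Cldn6, Itgb1bp2 and Itgb7, the last on the negative side.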

How the results depend on the processing

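The number of members with an adjusted p under 0.05 in limma was 0 for fosBd/d, fosB-null and their difference under every alternative run. The counts with an unadjusted p under 0.05 were less stable. Without the dye term they were 5 for fosBd/d, 3 for fosB-null and 8 for the difference, against 9, 5 and 11. Over all 8939 features the counts fell too, to 675, 176 and 512 from 1433, 543 and 1251. The difference gave 1 with the arrays paired by dye (144 of all features) and 4 with the fosB-null sign turned (827 of all features). As deposited, pairing by dye leaves the dye component in the paired differences with opposite signs, which adds to their spread. Other causes were not tested. Leaving out each array in turn also drops the dye term and leaves 1 array for a mutant, so only medians and sides are given for it. The fosB-null median ran from -0.14 to -0.034 with an array left out. The fosBd/d median ran from 0.10 to 0.30 and that of the difference from 0.12 to 0.37. Fitting probes singly, scaling the arrays to one spread, leaving out exact zeros, keeping adhesion chains only or choosing members by updated symbols, which gave the same 46 genes, kept all counts within 1.5 times. Taken as natural logs, the values shrink, and the fosBd/d median becomes 0.08. The side of the value differed from the fit for 12 members without fosBd/d replicate 1 and for 4 without replicate 2, and for 12 and 14 without fosB-null replicates 1 and 2.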
